A study of Homo sapiens with 39 samples.

Results

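SOX10 was followed as 1 gene and as 7 annotated transcripts, SOX10-201 to SOX10-207, in 39 RNA-seq libraries made from 2 human melanoma cell lines, A375 and WM115. It was picked by its gene name, as 1 of 60671 genes and 7 of 173728 transcripts with a distinct Ensembl identifier in the deposited tables. Values are in TPM, a length-corrected measure that is scaled to the same total in each library. A transcript's share below is its TPM as a percentage of the summed TPM of all SOX10 transcripts in that library. The transcript values summed to the gene value within 0.0005 TPM in every library.

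Each line was sampled as WT cells and as clones, each clone being 1 edited cell population, in which an enhancer region of SOX10, named R1 or R4, was deleted. The library names of the WM115 WT cells carry the tag wt5, whose meaning the labels do not give. For A375 there were 4 libraries of WT cells, 3 and 4 of the R1 clones 1.1 and 1.2, and 4 and 3 of the R4 clones 4.1 and 4.2. For WM115 there were 4 of WT cells, 5 and 3 of the R1 clones 1.1 and 1.2, 3 each of the R4 clones 4.1 and 4.2, and 3 of clone 1.3. The title of clone 1.3 names the R1 series and its genotype label names R4, so it is described separately and stayed out of the comparison of R1 with R4. The libraries of a clone are repeats of 1 clone, and nothing in the labels says whether they came from separate cultures, so p-values over libraries measure the spread between these libraries, which may be technical. Fewer cells that express SOX10 and less SOX10 RNA per cell cannot be told apart in these bulk values.

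SOX10 is a transcription factor of the SOXE group, with an HMG domain that binds DNA. It is active in the neural crest, and it is then kept in melanocytes and in Schwann cells. In the melanocytic lineage it activates MITF and, together with MITF, genes of pigment synthesis, and most melanomas continue to express it. Several enhancers, some of them far from the gene, drive it in different tissues.

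GENCODE 29 (GRCh38) places 5 of the 7 transcripts, all on the minus strand of chromosome 22. SOX10-206 and SOX10-207 are in the deposited table but not in that annotation, so their structure is not described here. SOX10-202 runs from 37972300 to 37984537, has 4 exons and 2879 bases, and holds the full coding sequence of 1398 bases, counted without the stop codon. SOX10-201 has the same coding sequence of 1398 bases and the same end, but starts further upstream, at 37987422, with a first exon of 78 bases that no other SOX10 transcript has. All 78 of those bases lie within exons of POLR2F, an RNA polymerase subunit gene on the opposite strand. The protocol names no step that marks the strand. If none was used, reads that lie wholly within that exon cannot be told apart from POLR2F reads. SOX10-203 (37977923 to 37984346) has 3 exons and 873 bases, of which 641 are coding. Its 140 own bases are all in its first exon, and the model ends inside the third exon. SOX10-205 is a model of 124 bases, all of which are shared with SOX10-202.

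SOX10-204 (37970686 to 37983414) is the transcript that ends differently. It has 4 exons and 1095 bases, of which 536 are coding, and its model starts inside a coding exon. It leaves the last exon of SOX10-202 after 155 bases, skips 2745 bases, and joins a last exon of 613 bases (37971298 to 37970686) that lies beyond the end of SOX10-202 and is in no other SOX10 transcript. No base of that exon lies in a POLR2F exon. The first 54 bases of it are coding and are followed by TGA. The sequences at this fork, from the GENCODE 29 transcripts on GRCh38, show where the readings of the coding frame part. The lower-case bases are the last 30 that both share (chr22:37974044-37974073, minus strand), and the capitals are the 54 that follow in each transcript, at chr22:37973990-37974043 in SOX10-202 and at chr22:37971245-37971298 in SOX10-204.
SOX10-202: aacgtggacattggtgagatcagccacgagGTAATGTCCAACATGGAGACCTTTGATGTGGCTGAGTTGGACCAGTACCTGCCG
SOX10-204: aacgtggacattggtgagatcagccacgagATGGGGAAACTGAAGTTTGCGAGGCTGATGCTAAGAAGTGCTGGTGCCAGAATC
The 54 capitals were equal at 9 positions. Their GC content was 51.9% in SOX10-202 and 50% in SOX10-204.

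**Figure D1:**
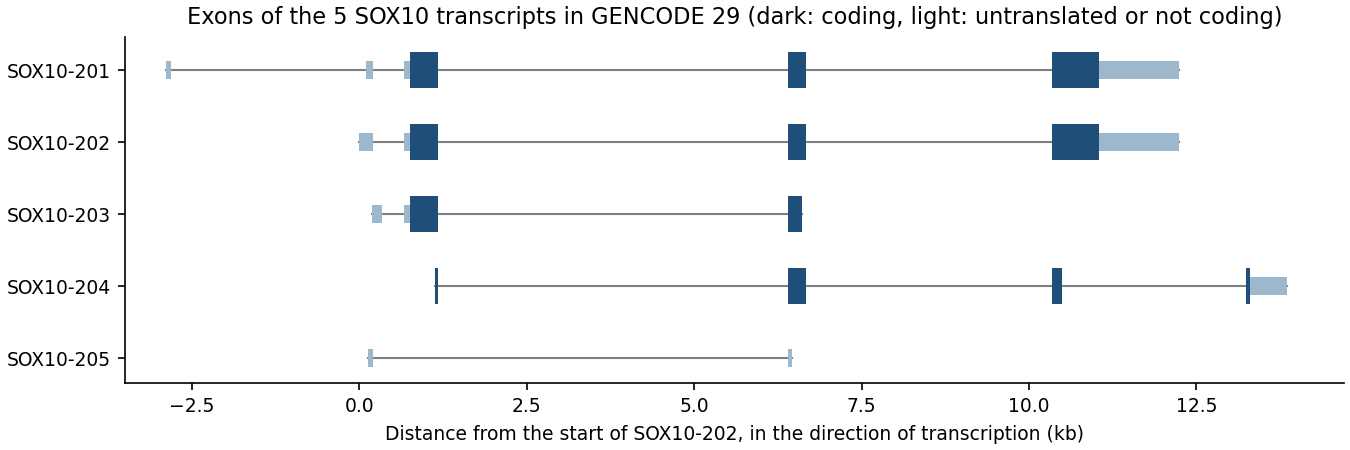
Exons of the 5 SOX10 transcripts in GENCODE 29, drawn to scale against the distance from the start of SOX10-202 in kb, with coding parts dark and other exon parts light. SOX10-201 and SOX10-202 share their last exon, SOX10-203 ends inside the third exon, and SOX10-204 ends in a separate exon past the others.

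Since SOX10-203 and SOX10-204 are short models, a read assigned to them adds more TPM than a read assigned to SOX10-202. Shares therefore compare a transcript between libraries and are not shares of reads. The authors' assignment of reads among transcripts that share most of their bases also enters each share.

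The 37 mitochondrially encoded genes made up between 0.968% and 4.92% of TPM in A375 libraries, and between 4.71% and 19.4% in WM115 libraries. Library 3 of WM115 R1 clone 1.2 stood apart. SOX10 was at 9.56 TPM in it, against 279 and 272 TPM in libraries 1 and 2 of that clone. The summed TPM of 10 melanocytic lineage markers, SOX10 among them, was 46.5 in it, against 783 and 1064 in libraries 1 and 2, and MLANA, TYR and DCT were listed at 0. The summed TPM of 7 fibroblast markers was 681 in it, against 482 and 838 in libraries 1 and 2 and 461 to 674 in WT. That of 4 blood markers was 757, against 420.4 and 483, and 336 to 445 in WT, and that of 3 endothelial markers was 16.3, against 2.73 and 5.55, and 0.229 to 3.18 in WT. For 6 keratinocyte markers the sum was 62.1, against 50.8 and 51.9, and 40.5 to 56.5 in WT, and for 6 markers of an undifferentiated melanoma state 349, against 503 and 333, and 101 to 469 in WT. In library 3, 1 of the 4 blood markers and 2 of the 6 keratinocyte markers reached 1 TPM. So did 2 of the 3 endothelial and 6 of the 7 fibroblast markers. In libraries 1 and 2 of that clone, 1 and 1 blood, 1 and 2 keratinocyte, 1 and 1 endothelial and 6 and 4 fibroblast markers did. Markers that reached 1 TPM in every WT library, a stricter measure, were 1 blood, 1 keratinocyte, 0 endothelial and 3 fibroblast markers. Whether other cell types were present in library 3, and their part in its low SOX10 value, was not tested. In A375 WT, TYR was listed at 0 and MLANA lay at 0.195 to 0.64 TPM, so these markers of pigmented cells were at or near 0 in that line. For the results named in R1 clone 1.2, DCT and MLANA apart, values from a fit without that library are given beside those from all libraries. For the single listed genes, the neighbours and chromosome 22, this alternative was chosen after the data were seen.

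SOX10-202 held the largest share and SOX10-204 the next in all 39 libraries. In A375, SOX10-202 held 63.4% to 78% of SOX10 TPM (median 69.3%, n = 18), SOX10-204 13.1% to 23% (median 19.7%) and SOX10-203 2.43% to 15.4% (median 7.66%). In WM115, SOX10-202 held 72.9% to 85.6% (median 79.2%, n = 21), SOX10-204 7.52% to 19.3% (median 13.1%) and SOX10-203 0 to 6.7% (median 3.08%). The lines overlapped in the share of all 3 transcripts.

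The remaining transcripts were minor. SOX10-201, the other model with the complete coding sequence, held 0.686% to 2.06% in A375 and 0 to 3.46% in WM115. SOX10-207 held 0.49% to 2.65% in A375 and 0 to 3.3% in WM115. SOX10-205 was above 0 in 1 of 39 libraries and SOX10-206 in 7 of 39, none of them above 0.473 TPM for SOX10-206.

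The first comparison set the WT cells of the 2 lines against each other. WT A375 held more SOX10 than WT WM115, and a larger part of it was SOX10-204 and SOX10-203. The SOX10 level was 702, 706, 691 and 629.8 TPM in the 4 A375 WT libraries (682 ± 35.6, SD, n = 4) and 553, 539.9, 485 and 449 TPM in the 4 WM115 WT libraries (507 ± 48.3, SD, n = 4). The groups did not overlap. On the log2(TPM + 1) scale, WM115 was lower, with a difference of -0.43 (SE 0.13, adjusted p = 0.0202, limma with Benjamini-Hochberg adjustment over all genes). In this comparison 47.9% of the 16126 genes tested passed, so a difference between the lines in the level of a gene was common.

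The SOX10-204 share was 21.7%, 16.8%, 20.9% and 18.8% in A375 WT (19.5% ± 2.22, SD, n = 4) and 13.1%, 12.1%, 13.7% and 12.6% in WM115 WT (12.9% ± 0.677, SD, n = 4). All 4 A375 libraries lay above all 4 WM115 libraries. On the log2 odds of the share, WM115 was lower, with a difference of -0.71 (SE 0.18, adjusted p = 0.0463, limma over 30969 transcripts, of which 8.43% passed).

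The SOX10-203 share was 6.62%, 7.69%, 8.7% and 13.9% in A375 WT and 5.62%, 2.86%, 3.08% and 4% in WM115 WT. These groups also did not overlap, and WM115 was lower, with a difference of -1.30 on the log2 odds (SE 0.32, adjusted p = 0.0465, limma). SOX10-202 had the larger share in WM115, 78.8% ± 1.29 against 69% ± 3.73 (SD, n = 4 each), a difference of 0.73 on the log2 odds (SE 0.19) that missed the threshold (adjusted p = 0.0522, limma).

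An exact permutation test on the library values (two-sided, 4 against 4, with 0.0286 as the smallest p it can give) gave that smallest p for the level and for the shares of SOX10-202, SOX10-203, SOX10-204 and SOX10-207, and 0.0343 for each after Benjamini-Hochberg adjustment over 6 measures. SOX10-207 held 0.853% ± 0.347 in A375 WT and 2.17% ± 0.154 in WM115 WT (SD, n = 4 each). SOX10-201 held 1.36% ± 0.549 and 2.26% ± 0.548 (SD, n = 4 each), with an exact permutation p of 0.0571.

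The limma calls between the lines lay close to the threshold. Leaving out 1 library at a time took the adjusted p of the SOX10-204 share to between 0.0355 and 0.121, and it stayed under 0.05 only without A375 WT library 2. It took that of the SOX10-203 share to between 0.0457 and 0.116, under 0.05 only without WM115 WT library 1, and that of the level to between 0.0155 and 0.0662, over 0.05 without A375 WT library 1 or WM115 WT library 4. Each line is 1 source of cells, so these values compare these cultures and not kinds of melanoma.

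**Figure D2:**
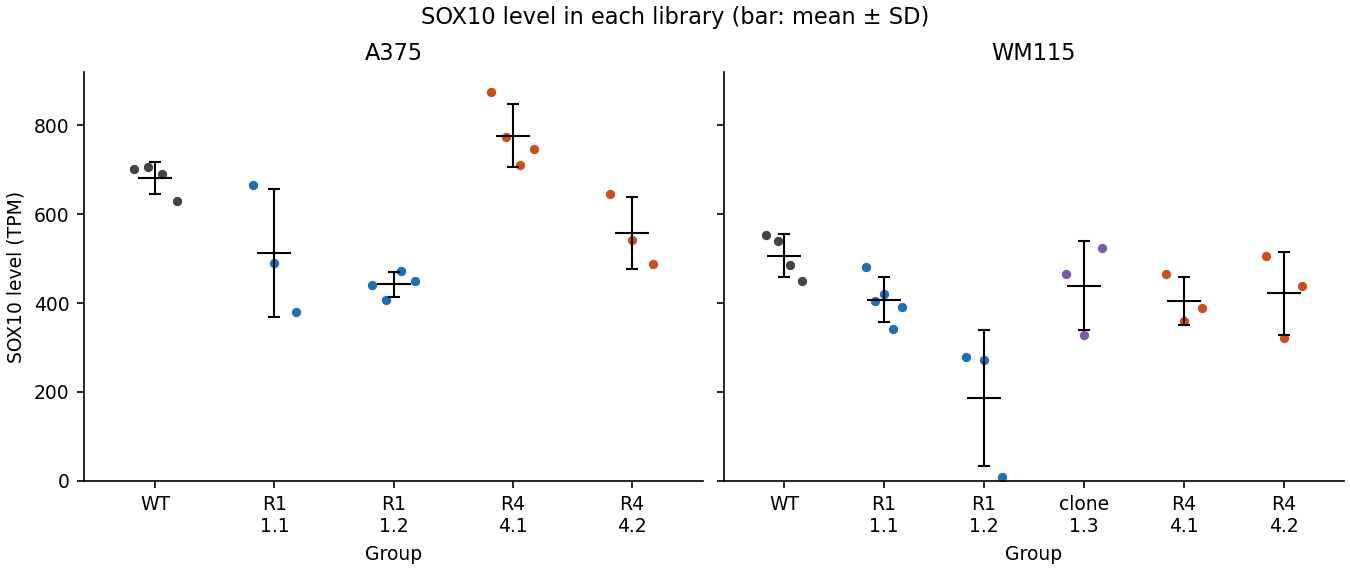
SOX10 level in TPM (vertical axis) in each library, by group (horizontal axis), for A375 and WM115, with points for libraries and bars for mean ± SD. The 4 libraries of A375 R1 clone 1.2 lie below and those of R4 clone 4.1 above the A375 WT libraries, and 1 library of WM115 R1 clone 1.2 lies at 9.56 TPM.

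The second comparison set each clone against the WT cells of its line. By limma, SOX10 was lower than in WT in R1 clone 1.2 of both lines and did not pass in the other 7 clones. In exact permutation tests of the level, adjusted over the 9 clones, no clone passed. The exact permutation test gave p = 0.0286 (adjusted 0.0952) for A375 R1 clone 1.2 and equally for A375 R4 clone 4.1, which was higher. For WM115 R1 clone 1.1 the exact permutation p was 0.0317 (adjusted 0.0952), and for R1 clone 1.2 of that line 0.0571 (adjusted 0.129). With 3 libraries against 4, an exact permutation p of 0.0571 is the smallest possible. The R1 clone 1.2 libraries of A375 held 440.6, 406, 473 and 450.5 TPM, all below the lowest WT library at 629.8 TPM. The log2 difference was -0.62 (SE 0.15, adjusted p = 0.0135, limma, where 8.53% of 16692 genes passed). It missed the threshold under quantile normalization (-0.55, adjusted p = 0.0753) and in the libraries with under 2.5% of TPM in mitochondrial genes, of which 2 were of this clone (-0.68, adjusted p = 0.352). With a minimum log2 difference of 1 it was not called either.

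The R1 clone 1.2 libraries of WM115 held 279, 272 and 9.56 TPM, below all WT libraries. The log2 difference was -2.44 (SE 0.70, adjusted p = 0.0192, limma, where 22.6% of 16997 genes passed). Without library 3 it was -0.87 (adjusted p = 0.0123). In a fit of only this clone and WT the adjusted p was 0.149.

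In A375, R4 clone 4.1 held 876, 774, 711 and 746 TPM, all above the highest WT library at 706 TPM, but its log2 difference of 0.18 did not pass (SE 0.15, adjusted p = 0.794, limma, where 1.31% of genes passed). That fit was unpaired, although libraries of this clone deviated together with the WT libraries of the same number. With the replicate block the difference did not pass either. R1 clone 1.1 (667, 491 and 381 TPM) and R4 clone 4.2 (647, 541 and 488 TPM) overlapped WT, in comparisons where 1.04% and 0.557% of genes passed. R1 clone 1.1 differed by -0.45 (SE 0.16, adjusted p = 0.286), and without its library 1, at the WT level, by -0.66 (adjusted p = 0.0366, limma).

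In WM115, R1 clone 1.1 (342 to 482 TPM, median 405, n = 5), R4 clone 4.1 (360.0 to 465, median 389.6, n = 3), R4 clone 4.2 (321 to 506, median 438, n = 3) and clone 1.3 (328 to 525, median 465, n = 3) all overlapped WT. Their log2 differences were -0.32, -0.33, -0.28 and -0.23, each with an SE between 0.61 and 0.70 that holds the spread of library 3 of R1 clone 1.2. With that library out of the shared fit the SEs were 0.15 for R1 clone 1.1 and 0.17 for the others, and the adjusted p values lay between 0.127 and 0.565 (limma). The share of all genes that passed was 22% for R1 clone 1.1, 24.2% for R4 clone 4.1, 20.3% for R4 clone 4.2 and 1.06% for clone 1.3.

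Ordered by mean level, A375 ran from R4 clone 4.1 to WT, R4 clone 4.2, R1 clone 1.1 and R1 clone 1.2. Neighbours in that order overlapped, apart from R4 clone 4.1 and WT. WM115 ran from WT to clone 1.3, R4 clone 4.2, R1 clone 1.1, R4 clone 4.1 and R1 clone 1.2, and only the last step had no overlap.

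SOX10-205 and SOX10-206 did not reach the minimum level for a test, so 5 transcripts were tested in each clone. At the transcript level none of 20 tests in A375 passed (5 were under an unadjusted p of 0.05, limma) and 2 of 25 passed in WM115. SOX10-202 in A375 R1 clone 1.2 was at 334, 275, 341 and 342 TPM, against 485, 523, 466 and 412 TPM in WT, without overlap. Its log2 difference was -0.55 (SE 0.15, adjusted p = 0.085). SOX10-204 in that clone was at 87.9, 89.8, 90.0 and 76.1 TPM against 152, 118, 145 and 118 TPM, a difference of -0.62 (SE 0.16, adjusted p = 0.0702), again without overlap. SOX10-203 was at 10.7, 34.3, 31.1 and 15.3 TPM against 46.5, 54.3, 60.1 and 87.4 TPM, a difference of -1.51 (SE 0.42, adjusted p = 0.0973). The 3 most abundant transcripts each lay below WT in every library of this clone, and each missed the threshold that the gene total passed.

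Both transcript calls were in WM115 R1 clone 1.2. SOX10-201 was at 4.74, 1.39 and 0 TPM against 11.7, 16.4, 8.44 and 9.64 TPM in WT (-2.35, SE 0.48, adjusted p = 0.0102, limma). SOX10-207 was at 3.57, 5.51 and 0 TPM against 12.5, 12.5, 10.2 and 8.91 TPM (-1.95, SE 0.51, adjusted p = 0.0349). Without library 3, where both were listed at 0, the differences were -1.72 (adjusted p = 0.0991) and -1.13 (adjusted p = 0.262), so neither call held. In the same clone SOX10-202 was at 214, 217 and 7.89 TPM against 425, 430, 385 and 356 TPM (-2.42, SE 0.69, adjusted p = 0.0521).

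The spread of that library also entered the other WM115 comparisons. With it out of the shared fit, an alternative chosen after the data were seen, 3 further transcript levels passed. SOX10-203 was lower in R1 clone 1.1 (6.83 to 11.4 TPM against 14.9 to 31.1 TPM in WT, -1.14, SE 0.25, adjusted p = 0.0148, limma) and in R4 clone 4.1 (6.54 to 8.21 TPM, -1.30, SE 0.29, adjusted p = 0.0112). SOX10-204 was lower in R1 clone 1.1 (34.3 to 44.2 TPM against 56.7 to 72.4 TPM, -0.72, SE 0.17, adjusted p = 0.0225). In the fit of all libraries their adjusted p values were 0.239, 0.219 and 0.46.

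For scale, the share of all 55502 transcripts tested in A375 that passed was 0.117% and 1.58% in the R1 clones 1.1 and 1.2, and 0.124% and 0.0829% in the R4 clones 4.1 and 4.2. Of the 58068 tested in WM115, 4.53% and 4.4% passed in the R1 clones 1.1 and 1.2, 6.34% and 4.71% in the R4 clones 4.1 and 4.2, and 0.0827% in clone 1.3.

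The third comparison asked whether the clones divided SOX10 among its transcripts differently from WT. No share passed the adjusted test in any of the 9 clones, but in WM115 several groups lay wholly outside the WT range, and they did so in both directions. The SOX10-204 share in WM115 R1 clone 1.1 was 9.16%, 9.67%, 10.2%, 10.4% and 8.78% (9.64% ± 0.678, SD, n = 5), all below the WT range of 12.1% to 13.7%. In R4 clone 4.1 it was 18.2%, 16.7% and 18.1% (17.7% ± 0.831, SD, n = 3), and in R4 clone 4.2 17.8%, 15.1% and 19.3% (17.4% ± 2.15, SD, n = 3), all above the WT range. R1 clone 1.2 (16.2%, 12.1% and 17.5%) and clone 1.3 (12.6%, 16.4% and 7.52%) overlapped WT, and clone 1.3 had the widest spread of the groups.

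On the log2 odds the SOX10-204 differences were -0.46 in R1 clone 1.1 (SE 0.21, adjusted p = 0.441), 0.54 in R4 clone 4.1 (SE 0.24, adjusted p = 0.405) and 0.50 in R4 clone 4.2 (SE 0.24, adjusted p = 0.543, limma). Exact permutation p values were 0.0159, 0.0571 and 0.0571, each the smallest its group sizes allow, so 3 libraries against 4 could not go under 0.05. After adjustment over the 9 clones they were 0.143, 0.171 and 0.171.

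SOX10-202 lay on the opposite side of the WT range in R1 clone 1.1 and R4 clone 4.2, and overlapped WT in R4 clone 4.1. Its share in WM115 R1 clone 1.1 was 85.5%, 84.8%, 85.6%, 83.3% and 84.4%, all above the WT range of 76.9% to 79.7%, with a log2 odds difference of 0.57 (SE 0.12). That was the share nearest to the threshold (adjusted p = 0.0671, limma; exact permutation p = 0.0159, adjusted 0.143). In R4 clone 4.2 it was 76.2%, 73.3% and 72.9%, all below WT (-0.37, SE 0.14, adjusted p = 0.406, limma). The range in R4 clone 4.1 was 76.3% to 78.2% (-0.14, SE 0.14, adjusted p = 0.762, limma). A rise of one share lowers the others by construction, so the SOX10-202 and SOX10-204 shares are not independent.

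SOX10-203 was under the minimum mean share for the main test in WM115. Its share was 1.42% to 2.92% in R1 clone 1.1 and 1.41% to 2.28% in R4 clone 4.1, against 2.86% to 5.62% in WT, so that R4 clone 4.1 lay below WT and R1 clone 1.1 overlapped it by 1 library. With a lower minimum the log2 odds differences were -0.89 (SE 0.28, adjusted p = 0.172) and -1.06 (SE 0.32, adjusted p = 0.148, limma).

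In A375 no clone lay wholly outside the WT range in the share of SOX10-202 or SOX10-204. The SOX10-204 share was 19.4%, 23% and 21.6% in R1 clone 1.1, 19.9%, 22.1%, 19% and 16.9% in R1 clone 1.2, 16.7%, 13.1%, 18.5% and 18.8% in R4 clone 4.1 and 21.9%, 22.7% and 21.5% in R4 clone 4.2. The log2 odds differences from WT were 0.16, -0.0006, -0.28 and 0.23, with SEs of 0.18 to 0.19. The smallest adjusted p of the 12 A375 share tests was 0.767, for SOX10-203 in R1 clone 1.2 (-0.97, SE 0.42).

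Of the 12 share tests in A375, 1 was under an unadjusted p of 0.05, and 4 of the 10 in WM115 (limma). Few transcripts of any gene passed in these comparisons. In A375, of 29760 transcripts tested, 0.0437% and 0.0974% passed in the R1 clones 1.1 and 1.2, and 0.0336% and 0.0336% in the R4 clones 4.1 and 4.2. In WM115, of 30299 tested, 0.3% and 0.129% passed in the R1 clones 1.1 and 1.2, 0.267% and 0.099% in the R4 clones 4.1 and 4.2, and 0.0033% in clone 1.3.

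**Figure D3:**
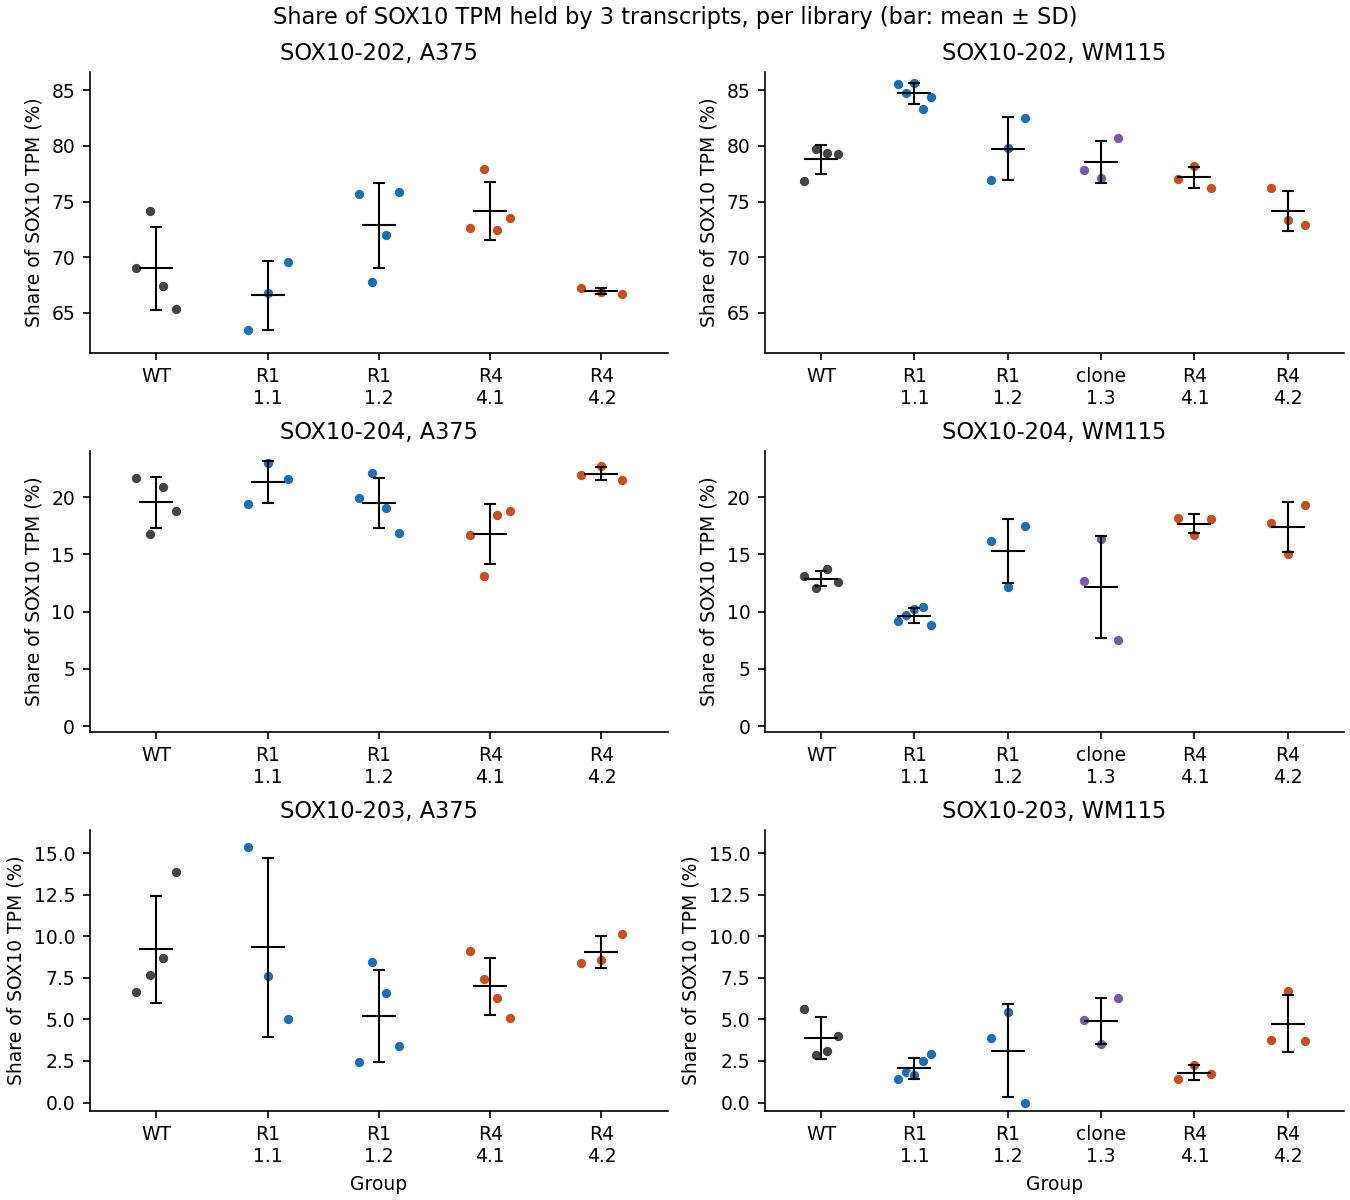
Share of SOX10 TPM in percent (vertical axis) held by SOX10-202, SOX10-204 and SOX10-203 in each library, by group (horizontal axis), with bars for mean ± SD. The axis of SOX10-202 does not start at 0. In WM115 the SOX10-204 share of the 5 libraries of R1 clone 1.1 lies below WT and that of both R4 clones above it.

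The SOX10-207 share was lower in libraries with a low mitochondrial share, which was seen after the data were examined and is given with no test. In WM115 it was 0.745% to 1.02% in the 6 libraries with under 7.5% of TPM in mitochondrial genes and had a mean of 1.99% (0 to 3.3%) in the 15 libraries over that value. All 4 WT libraries were among the latter. Within R1 clone 1.1 it was 0.745% to 1.02% in 3 libraries of low mitochondrial share and 2.3% and 2.34% in 2 of high share, and within R4 clone 4.2 0.806% in 1 library and 2.06% and 3.3% in 2. In A375 the means were 0.68% in 12 libraries under 2.5% and 1.3% in 6 over it, but in R4 clone 4.2 the order was the opposite, with 0.905% and 0.908% under it and 0.762% over it. The part of the mitochondrial share in the SOX10-207 difference between the WT lines was not tested.

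The SOX10-204 share in WM115 did not divide that way: the R1 clone 1.1 libraries of high mitochondrial share held 10.4% and 8.78%, and those of low share 9.16%, 9.67% and 10.2%.

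**Figure D4:**
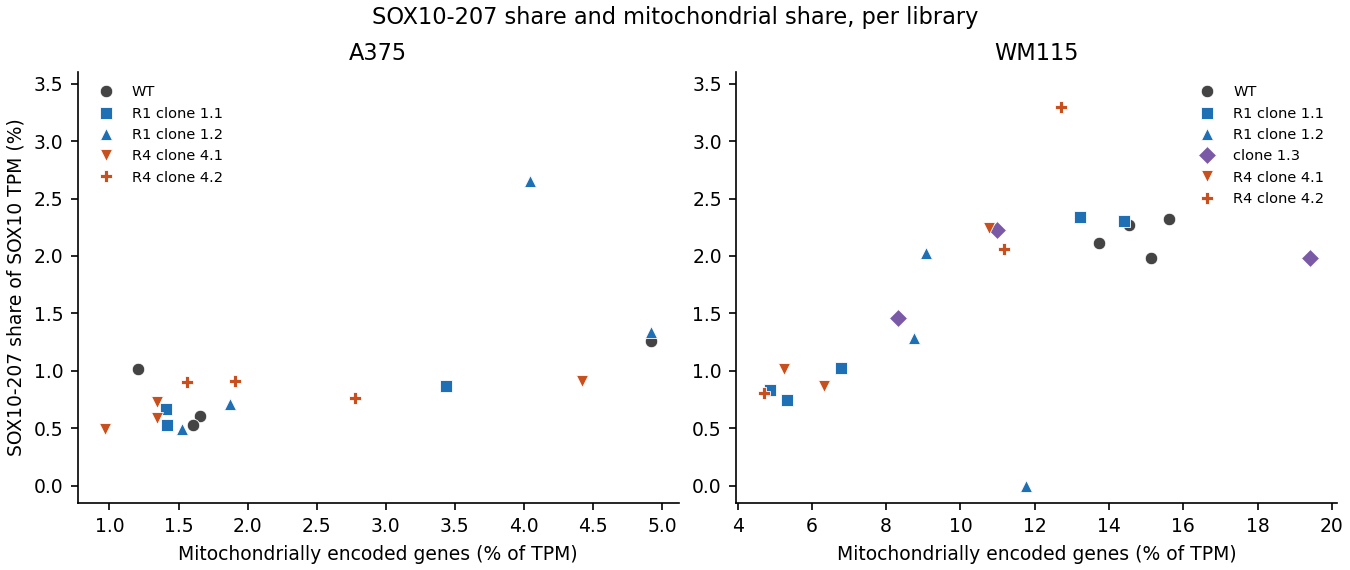
SOX10-207 share of SOX10 TPM in percent (vertical axis) against the share of TPM from mitochondrially encoded genes in percent (horizontal axis), 1 point per library, with a symbol per group. In WM115 the 6 libraries with under 7.5% of mitochondrial TPM lie at 0.745% to 1.02%, and library 3 of R1 clone 1.2 lies at 0.

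The last comparison took the clone as the unit and set the 4 R1 clones against the 4 R4 clones, with a term for the line. The SOX10 level in R1 clones differed from that in R4 clones by -0.78 on the log2 scale (SE 0.40, adjusted p = 0.996, limma), which did not pass. Leaving out 1 clone at a time gave -1.14 to -0.29, and leaving library 3 out of the mean of WM115 R1 clone 1.2 gave -0.38. The SOX10-204 share differed by -0.23 on the log2 odds (SE 0.24, adjusted p = 0.9997) and that of SOX10-202 by 0.24 (SE 0.22, adjusted p = 0.9997). Without WM115 R1 clone 1.1 the SOX10-204 difference was 0.0044. No gene and no transcript share passed in these fits, 0% of 15287 genes and 0% of 25352 transcripts, although 658 and 982 were under an unadjusted p of 0.05.

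SOX10 partners and targets were described from a list of 39 genes in 3 roles: 16 regulators and partners, 11 melanocytic genes and 12 glial and neural crest genes. Of the list, 28 were tested in A375 and 34 in WM115. In A375 R1 clone 1.2, where SOX10 was lower, 4 members rose and 9 fell, against 5.44% and 3.09% of all genes, with a list median of -0.24 and a median over all genes of 0.07. In the other A375 clones 0 rose (0.3%, 0.515% and 0.138% of all genes in R1 clone 1.1, R4 clone 4.1 and R4 clone 4.2), and 2, 1 and 2 fell (0.737%, 0.797% and 0.419% of all genes, limma).

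In WM115 R1 clone 1.2, 3 members rose and 13 fell, against 11.8% and 10.8% of all genes (list median -1.14, all genes -0.02). Without library 3 of that clone, 2 rose and 3 fell, against 3.57% and 1.68% of all genes. In the R4 clones 4.1 and 4.2 of WM115, 10 and 12 members fell (15.6% and 13.6% of all genes). In these clones 3 and 2 members rose (8.59% and 6.71%). Their SOX10 levels differed from WT by -0.33 and -0.28, overlapped WT and did not pass. Of the 10 melanocytic genes tested, 8 and 7 fell in these R4 clones, 5 in R1 clone 1.2, 1 in R1 clone 1.1 and 0 in clone 1.3. Without library 3 of R1 clone 1.2 in the shared fit, 9 and 8 fell in the R4 clones, 3 in R1 clone 1.2, 1 in R1 clone 1.1 and 0 in clone 1.3. R1 clone 1.1 had 2 members that rose (6.3% of all genes) and 1 that fell (15.7%), and clone 1.3 had 1 that rose (0.653%) and 0 that fell (0.406%). Without library 3 of R1 clone 1.2, R1 clone 1.1 had 5 that rose (7.36% of all genes) and 2 that fell (17.3%). The R4 clones 4.1 and 4.2 then had 7 and 5 that rose (9.75% and 8.02%), and 14 and 15 that fell (17.7% and 15.7%). Of 10 glial and neural crest genes, 2 rose and 1 fell in R4 clone 4.1, and 0 rose and 1 fell in R4 clone 4.2. Without library 3, 5 rose and 2 fell, and 1 rose and 2 fell. Of 14 regulators and partners, 1 rose and 1 fell in R4 clone 4.1, and 1 rose and 4 fell in R4 clone 4.2. Without library 3, 2 rose and 3 fell, and 3 rose and 5 fell. In either fit 1 melanocytic gene rose in R4 clone 4.2.

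MITF, the main regulator of the melanocyte lineage and a direct target of SOX10, was at 128 ± 46.4 TPM in WM115 WT (n = 4), 10.5 ± 1.08 in R4 clone 4.1 (n = 3) and 16.5 ± 1.63 in R4 clone 4.2 (n = 3, SD). Its log2 differences were -3.40 (SE 0.61, adjusted p = 0.000793) and -2.80 (SE 0.61, adjusted p = 0.00412, limma). In R1 clone 1.2 MITF was at 41.4, 88.4 and 6.16 TPM, the last in library 3. Its difference there was -2.01 (adjusted p = 0.0253), and without library 3 it was -0.97 and did not pass (adjusted p = 0.240, limma). In A375 MITF fell in R1 clone 1.1 (-1.31, SE 0.19, adjusted p = 0.00165) and in R4 clone 4.2 (-0.96, SE 0.19, adjusted p = 0.0268, limma). The SOX10 differences of these clones from WT were -0.45 and -0.30. They did not pass, and the SOX10 levels overlapped WT. In A375 R1 clone 1.2, where SOX10 was lower, MITF was at 16.5 ± 2.26 TPM against 22.3 ± 3.3 in WT (SD, n = 4 each) and did not pass (adjusted p = 0.195).

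SOX8, another factor of the SOXE group, changed in opposite directions in the 2 lines. In WM115 WT it was at 0.041 to 0.15 TPM, and it rose in all 5 clones, from 1.78 in R1 clone 1.2 (where library 3 listed it at 0) to 3.86 in R4 clone 4.1 on the log2 scale (adjusted p between 2e-05 and 0.013, limma). Without library 3, SOX8 passed in all 5 clones too, with 2.74 in R1 clone 1.2 and 2.41 to 3.86 over the 5. R4 clone 4.1 held 12.1 to 16.7 TPM of it. In A375 WT it was at 1.9 to 4.44 TPM, and it fell in R1 clone 1.1 (-1.80, adjusted p = 0.0115), R1 clone 1.2 (-2.02, adjusted p = 0.000489, listed at 0 in all 4 libraries) and R4 clone 4.2 (-1.59, adjusted p = 0.0404). In A375 R4 clone 4.1, the clone with the highest mean SOX10, it was at 1.25 to 7.27 TPM. The difference between the lines was not tested.

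The other members named by the rule were DCT and MLANA, which fell, and NRG1, which rose, in WM115, and TFAP2A, which rose, in A375. DCT, an enzyme of melanin synthesis, fell in the R4 clones 4.1 and 4.2, with log2 differences of -6.50 and -6.89 (adjusted p = 0.00103 and 0.000959). It was at 215 to 1685 TPM in WM115 WT and at 2.37 to 13.7 TPM in these clones. MLANA, a melanosome protein, fell in them too, with differences of -4.13 and -4.07 (adjusted p = 0.00139 and 0.00213). Each of the 2 genes fell in 3 of the 5 WM115 clones, the third being R1 clone 1.2 with all its libraries in the fit. In that clone DCT was at 0 to 148 TPM and MLANA at 0 to 1.51 TPM, both at 0 in library 3. MLANA was at 3.67 to 54.4 TPM in WM115 WT. NRG1, a ligand of ERBB receptors, rose by 1.79 in R4 clone 4.1 and 1.29 in R1 clone 1.2 (adjusted p = 0.00226 and 0.02), and by 2.92 in A375 R1 clone 1.2 (adjusted p = 6.14e-06). Without library 3 the NRG1 difference in WM115 R1 clone 1.2 was 1.27 and did not pass (adjusted p = 0.0886, limma). TFAP2A, an AP-2 factor, rose by 0.69 in A375 R1 clone 1.2 (adjusted p = 0.0133) and fell in A375 R4 clone 4.1 (-0.80, adjusted p = 0.0199, limma). In WM115 TFAP2A fell in the R4 clones 4.1 and 4.2 (-2.14 and -1.95, adjusted p = 1.56e-05 and 7.79e-05, limma).

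**Figure D5:**
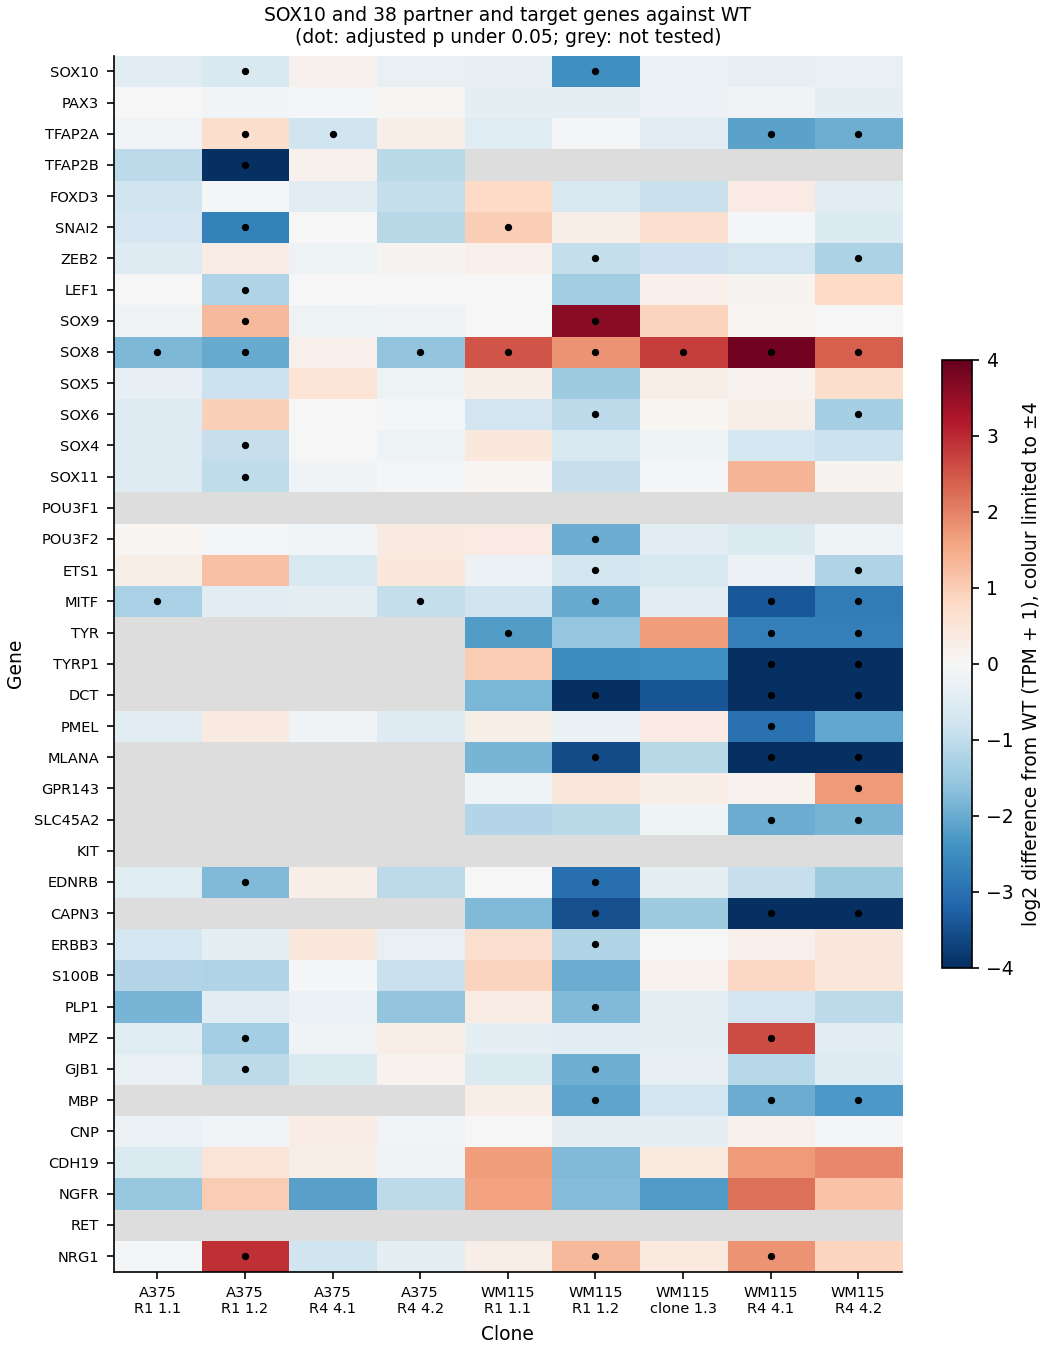
Log2 difference from WT on the TPM + 1 scale (colour, limited to 4 in either direction) of SOX10 and 38 of its 39 listed partners and targets (rows) in the 9 clones (columns), with a dot where the adjusted p was under 0.05 and grey where a gene was not tested. SOX8 rose in all 5 WM115 clones, and 8 and 7 melanocytic genes fell in the WM115 R4 clones 4.1 and 4.2. SOX10 differed from WT by -0.33 and -0.28 in these clones and has no dot.

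Around SOX10, POLR2F, whose exons hold the first exon of SOX10-201, passed in 1 clone. In WM115 R1 clone 1.2 it was at 71.4 to 144 TPM against 149 to 168 TPM in WT (-0.53, SE 0.17, adjusted p = 0.0322, limma). Without library 3 of that clone it was -0.23 and did not pass (adjusted p = 0.292, limma), while R4 clone 4.2 passed (0.37, adjusted p = 0.0243). PICK1, which encodes a scaffold protein with a PDZ domain, passed in none of the A375 clones and fell in 4 of the 5 WM115 clones, from -0.46 in R1 clone 1.1 to -0.84 in R1 clone 1.2 (adjusted p between 0.00439 and 0.0432). Without library 3 its difference in R1 clone 1.2 was -0.64 (adjusted p = 0.0463, limma). Of 20 listed neighbours, 18 were tested in WM115, of which 11 fell in R1 clone 1.2 (10.8% of all genes), 6 in R1 clone 1.1 (15.7%), 4 in R4 clone 4.1 (15.6%) and 4 in R4 clone 4.2 (13.6%). Without library 3, 3 of the 18 fell in R1 clone 1.2 (1.68% of all genes), and the counts in the other 3 were again 6, 4 and 4. In A375, 2 of 17 rose in R1 clone 1.2 (5.44% of all genes) and none passed in the other 3 clones.

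The lower values in WM115 R1 clone 1.2 reached beyond the neighbourhood. The median log2 difference of the 400 genes tested on chromosome 22 was -0.45 there, with 144 lower and 13 higher, against -0.02 over all genes, of which 10.8% were lower and 11.8% higher. Within 1 Mb of SOX10 the median of 49 genes was -0.37, and 21 were lower. Without library 3 the chromosome 22 median was -0.28 over 399 genes, with 22 lower and 7 higher, and all genes had a median of 0, with 1.68% lower and 3.57% higher. Within 1 Mb the median was then -0.23, and 3 of 49 were lower. In the other 8 clones the chromosome 22 median lay between -0.09 and 0.10. The part of this shift in the SOX10 difference of R1 clone 1.2 was not tested.

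The 5 genes whose levels followed SOX10 most closely within both lines were TRIM2, FAM86DP, SELENON, CELSR1 and HMCN1. They were ranked by the smaller of the Spearman correlation coefficients over 18 A375 libraries and over 21 WM115 libraries, among 10238 genes. The coefficients were 0.83 and 0.85 for TRIM2, 0.88 and 0.80 for FAM86DP, 0.87 and 0.79 for SELENON, 0.77 and 0.77 for CELSR1 and 0.83 and 0.77 for HMCN1. Without library 3 of R1 clone 1.2 the WM115 values were 0.73 to 0.82. Libraries of a clone are not independent, and these values describe the ranking only.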

How the data were processed

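RNA of A375 and WM115 cells was sequenced after poly-A selection, per the labels' protocols. The authors deposited gene and transcript values in TPM. The submitters' processing notes name DRAGEN and GRCh38, without their roles, and the annotation release is not given in the sources used here. Read depth is unknown, so no counting interval was computed. Repeated identical lines (200 genes, 1123 transcripts) were used once, and 6 columns of no sample in each table were left out.

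Levels were tested with limma 3.58.1 (R 4.3.3) on log2(TPM + 1) with a variance trend, each line separately, for features of at least 1 TPM in at least 3 libraries. Shares were tested with limma on the log2 odds, with 0.5 TPM added to both sides, for transcripts with a mean gene TPM of at least 5 and a mean share of 5% to 95%. Tests were two-sided, adjusted by Benjamini-Hochberg over all features, at 0.05. Exact permutation tests took 2 times the smaller tail. The scripts were tested on simulated data.

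The members, lists and tests were chosen with earlier results of these data known. Named genes are SOX10 and its transcripts, MITF, POLR2F, PICK1, for each line the 2 listed partners or targets with the largest rise and the 2 with the largest fall among those past the test in most clones, and the 5 genes most like SOX10. Of these, 1 listed gene is not reported here. Marker lists for keratinocytes, fibroblasts, endothelium, blood and an undifferentiated state were also summed. Same-numbered libraries deviated together in all pairs only for A375 R4 clone 4.1 and WT (correlations of 0.33 to 0.78, 4 of 4 best with their own number). The source of that pairing is the number in the titles. The block changed no SOX10 call in that comparison. Alternatives were pseudocounts, filters, scaling, 2-group fits, the replicate block and leaving out libraries or clones.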

Additional observations from a re-analysis of the deposited data

Results flagged for a closer look

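Dixon's test was made on the SOX10 level and on transcript shares within groups of 4 or 5 libraries. It picked out a library in 1 of 30 tests, where chance picks out about 1 in 20. Tests of shares in the same group are not independent. WM115 WT library 1 held a SOX10-202 share of 76.89%, against 79.25% to 79.7% in the other 3 WT libraries, a gap of 0.839 of the group's range.

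SOX10-205, a short model without bases of its own, was at 7.961 TPM in A375 R1 clone 1.1 library 3 and was listed at 0 in the WT libraries of both lines. SOX10-206 was at 0.4105 TPM in A375 R1 clone 1.2 library 2 and at 0.4728 TPM in library 4, against at most 0.3938 TPM in A375 WT. It was at 0.247 TPM in WM115 R4 clone 4.1 library 3 and at 0.2018 TPM in WM115 R4 clone 4.2 library 2, and was listed at 0 in WM115 WT. No test was made of these values.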

How the results depend on the processing

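Of 174 alternatives for the SOX10 level, 162 kept the direction and the side of the threshold, 10 lost the call and 2 gained one. The direction and the side were kept in 143 of 155 for the SOX10-202 share, 139 of 155 for the SOX10-204 share and 47 of 68 for the SOX10-203 share. Most of these share differences had not passed, so they had no call to lose. The only share calls, those of SOX10-203 and SOX10-204 between the WT lines, were each lost in 9 alternatives, which was nearly all of theirs. Reversals were of differences that did not pass in either setting. The cause of the changes below was not tested. Read depth is unknown, and 3 or 4 libraries a group limit the precision.

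With the replicate block in fits of 2 groups, the level lost its call in A375 R1 clone 1.2 (-0.62, adjusted p = 0.121, limma) and WM115 R1 clone 1.2 (-2.50, adjusted p = 0.208), as did SOX10-201 (-2.42) and SOX10-207 (-2.04) in the latter. In WM115 R1 clone 1.1 the level (-0.30, adjusted p = 0.0303), SOX10-203 (-1.25) and SOX10-204 (-0.68) passed. The shares of SOX10-203 in A375 R1 clone 1.1 (0.17) and SOX10-202 in WM115 R1 clone 1.2 (0.0053) reversed. Between the WT lines the block took the level (-0.43, adjusted p = 0.0594) and the SOX10-203 (-1.30, adjusted p = 0.109) and SOX10-204 shares (-0.71, adjusted p = 0.129) past the threshold. Apart from A375 R4 clone 4.1, the libraries share only a number with WT.

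In fits of only the 2 groups without the block, WM115 R1 clone 1.2 lost the calls of the level (-2.44), SOX10-201 (-2.35) and SOX10-207 (-1.95), and SOX10-203 (-1.14) and SOX10-204 (-0.72) in R1 clone 1.1 and SOX10-203 in R4 clone 4.1 (-1.30) passed. The last 3 also passed with library 3 of R1 clone 1.2 out of the shared fit. The listed partners and targets then numbered 5 higher and 2 lower in R1 clone 1.1, 3 lower in R1 clone 1.2, and 7 and 5 higher in the R4 clones 4.1 and 4.2.

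Among libraries of high mitochondrial share, an alternative chosen after seeing the data like that of low share, the level in WM115 R1 clone 1.2 missed the threshold (-2.44, adjusted p = 0.0716). Among those of low share so did A375 R1 clone 1.2 (-0.68), and the shares of SOX10-203 in A375 R1 clone 1.1 (0.0059) and SOX10-204 in A375 R1 clone 1.2 (0.18) reversed. On untransformed percentages, in limma and in the exact test, the shares of SOX10-203 in A375 R1 clone 1.1 (0.12 percentage points) and R4 clone 4.2 (-0.18) and SOX10-202 in WM115 R1 clone 1.2 (0.954) reversed. An offset of 0.05 TPM also reversed the last (0.079).

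With a mean of at least 5 TPM, SOX10-202 (-2.42) and SOX10-204 (-2.03) passed in WM115 R1 clone 1.2. The list then had 1 member lower in A375 R1 clone 1.1 and R4 clone 4.2, and 1 higher in A375 R1 clone 1.2, WM115 R1 clone 1.2 and WM115 R4 clone 4.2. With no filter SOX10-207 missed in WM115 R1 clone 1.2 (-1.95), as with a pseudocount of 0.1 (-3.12), and 0 members were lower in WM115 R1 clone 1.1. With a minimum log2 difference of 1, A375 R1 clone 1.2 (-0.62) was not called, 0 members were lower in A375 R4 clone 4.1 and 1 was higher in WM115 R1 clone 1.1. A375 R4 clone 4.1 had 2 lower with a pseudocount of 0.1. A375 R4 clone 4.2 had 1 lower under these settings and under median-of-ratios scaling. That scaling brought SOX10-204 in A375 R1 clone 1.2 under the threshold (-0.69) and reversed SOX10-203 in WM115 R4 clone 4.2 (0.11), as did quantile normalization (0.042), where the level in A375 R1 clone 1.2 missed (-0.55) and SOX10-202 in WM115 R1 clone 1.2 passed (-2.53). Between the WT lines a pseudocount of 0.1 with an offset of 0.05 TPM took the SOX10-203 (-1.32) and SOX10-204 shares (-0.71) past the threshold.

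Leaving out 1 library at a time gave a level difference of -0.66 to -0.25 in A375 R1 clone 1.1 and -0.48 to -0.38 between the WT lines. Between those lines the SOX10-202 share ranged from 0.65 to 0.85 and passed without A375 WT library 2, the SOX10-203 share from -1.49 to -1.06 and the SOX10-204 share from -0.79 to -0.64. In WM115 R1 clone 1.2, SOX10-201 ranged from -2.98 to -1.72, SOX10-202 from -3.19 to -0.88, SOX10-203 from -2.53 to -0.54, SOX10-204 from -2.79 to -0.74, SOX10-207 from -2.48 to -1.13 and the SOX10-202 share from -0.060 to 0.072. SOX10-207 lost its call without that clone's library 3 or any 1 WT library. In clone 1.3, SOX10-201 ranged from -0.53 to 0.31, SOX10-203 from -0.20 to 0.52, the SOX10-202 share from -0.11 to 0.044 and the SOX10-204 share from -0.44 to 0.19. In WM115 R4 clone 4.2, SOX10-203 ranged from -0.12 to 0.22 and SOX10-204 from -0.021 to 0.42. In A375 R1 clone 1.1, SOX10-203 ranged from -1.14 to 0.039 and its share from -0.55 to 0.33. The SOX10-203 share in A375 R4 clone 4.2 ranged from -0.13 to 0.26, and the SOX10-204 share in A375 R1 clone 1.2 from -0.088 to 0.081. SOX10-204 in A375 R4 clone 4.1 ranged from -0.11 to 0.069. SOX10-207 ranged from -0.54 to 0.14 in A375 R1 clone 1.2, -0.23 to 0.11 in R4 clone 4.1 and -0.33 to 0.018 in R4 clone 4.2. Leaving out 1 clone at a time, the SOX10-204 share differed between regions by -0.40 to 0.0044.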
